A study of Mus musculus with 28 samples.

Results

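The RNAs described here are the annotated copies of tRNA-Ala and tRNA-Cys, taken as the 88 entries of the quantification whose names start with tRNA-Ala- or tRNA-Cys-, out of 408 tRNA entries and 80668 entries in all. The 34 tRNA-Ala copies comprised 13 with anticodon AGC, 10 with CGC and 11 with TGC, and the 54 tRNA-Cys copies all carried anticodon GCA. Small RNA was sequenced from the blood of 14 female wild-type C57BL/6N mice aged 2 months (n = 3), 6 months (n = 4), 8 months (n = 3), 12 months (n = 2) or 18 months (n = 2). No other allele was named, all mice were anaesthetised with ketamine and xylazine before blood was drawn, and the protocol states that each sample came from 1 animal. Each mouse gave a pellet from ultracentrifugation of its plasma, enriched for extracellular vesicles (EVs), and the EV-depleted remainder, called plasma below, so that 28 libraries were available. An ultracentrifugation pellet is enriched for vesicles rather than pure, and the RNA of vesicles cannot be told apart from other RNA that sediments with them. The fractions were paired by the replicate number of the mouse, and the plasma libraries of 2-month replicates 2 and 3 carry one code that joins both numbers, so results are also given without these mice. Values are estimated read counts per annotated copy, or RPM, the depth-scaled reads that the authors deposited.

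tRNAs for alanine and cysteine carry these amino acids to the ribosome and read GCN and UGU or UGC codons. Cleavage in the anticodon loop, by angiogenin under stress among other enzymes, leaves 5′ and 3′ fragments, which are abundant in blood plasma and serum. The 5′ fragments of tRNA-Ala and tRNA-Cys start with a run of guanines. They can assemble into G-quadruplexes, bind the cold shock protein YB-1 and displace cap-binding initiation factors from mRNA, which inhibits translation. The counts are per tRNA copy, so 5′ fragments, 3′ fragments and mature tRNA cannot be told apart in them.

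The guanine run is shown here in the 1 tRNA gene of the 2 families for which a reference sequence was at hand, n-TAagc16, a tRNA-Ala gene with anticodon AGC on the plus strand of chr13:21222586-21222657 in RefSeq's GRCm38.p6, outside any annotated gene of GENCODE M21. Capitals mark the 5 guanines that open the 72 bases, and the anticodon at bases 33 to 35.
n-TAagc16: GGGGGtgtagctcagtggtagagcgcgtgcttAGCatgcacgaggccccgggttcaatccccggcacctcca
RefSeq lists 33 tRNA-Ala genes, of which 12 lie on chromosome 13 and 12 on chromosome X, and 57 tRNA-Cys genes, of which 49 lie on chromosome 6. Of these, 5 tRNA-Ala genes and 7 tRNA-Cys genes lie inside another gene, none of them over an exon. RefSeq's gene names are not paired with the copy numbers used below.

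All 88 copies had at least 1 count in every library. Copies of one name held equal whole counts: 29 copies of tRNA-Cys-GCA-4 were identical in all 28 libraries. The counting rule was not given, and it was taken from these counts that a read matching several copies was counted in full on each. Only 45 distinct count profiles remained, 23 of tRNA-Ala (9 AGC, 7 CGC, 7 TGC) and 22 of tRNA-Cys. Profiles of different names could also be nearly the same. Copies CGC-1 and TGC-2 differed by 2 to 66 counts per library, at most 0.739%, although their anticodons differ, so the reads they share cannot be assigned to one anticodon. Sums over copies therefore count shared reads several times, and each sum was also taken with 1 copy per distinct profile.

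The total count per library ran from 4764338 to 52753818 in EVs (median 12455662) and from 928650 to 23905651 in plasma (median 8673147), and 6-month replicate 1 was the only plasma library under 2000000. tRNA entries took 11.3% to 51.4% of all counts in EVs (median 32.1%) and 43.8% to 78.8% in plasma (median 61.6%). In plasma the 4 libraries of 12 and 18 months all had a higher tRNA share than every younger library. Marker miRNAs of red cells summed to 687 to 3170 RPM in plasma and 512 to 4268 RPM in EVs, and those of platelets to 43.1 to 253 RPM and 56.5 to 391 RPM. Those of liver summed to 14.6 to 177 RPM and 19.2 to 243 RPM, those of skeletal muscle to 0.757 to 8.01 RPM and 0.489 to 8.08 RPM, and none of the 13 listed markers was missing.

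Summed over copies, tRNA-Ala and tRNA-Cys were of middle rank among circulating tRNAs. Averaged over the 28 libraries, tRNA-Cys-GCA held 1.29% of all tRNA counts, the 14th of 51 anticodons, while Ala-AGC (0.752%), Ala-TGC (0.622%) and Ala-CGC (0.561%) ranked 22nd, 23rd and 25th. The anticodons with the most counts were His-GTG (14.8%), Pro-AGG (12.8%), Gly-GCC (9.38%), Pro-TGG (9.11%) and Val-CAC (7.68%). By the family in the name, where iMet, Met, SeC and Sup were groups of their own, tRNA-Ala (1.94%) ranked 11th and tRNA-Cys 13th of 23. These ranks rest on sums that count a shared read once per copy. With 1 copy per distinct profile, Cys-GCA averaged 1.71% in plasma and 1.59% in EVs, and Ala-AGC 1.58% and 1.42%. tRNA-Ala as a whole then averaged 3.58% and 4.05%. Few profiles carried most of these counts: CGC-1 and TGC-2 averaged 1866 and 1869 RPM and AGC-4 1551 RPM, with AGC-6 (620.1), AGC-2 (538) and TGC-4 (475) next. Of tRNA-Cys, GCA-3 (1014 RPM), GCA-2 (952) and GCA-1 (945) stood well above GCA-7 (181), GCA-5 (119.8) and GCA-10 (115).

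Within the tRNA pool, EVs held relatively more of the CGC and TGC anticodons of tRNA-Ala and relatively less of AGC than plasma from the same mice. The share of all tRNA counts was compared between the 2 fractions of each mouse with a two-sided exact sign-change permutation test over 16384 patterns, adjusted by the Benjamini-Hochberg method over 5 sums. Ala-TGC, the isoacceptor for GCA codons, took 0.270% to 0.742% of tRNA counts in plasma (median 0.545%) and 0.512% to 1.08% in EVs (median 0.661%). The fractions overlapped, but 13 of 14 mice had the higher share in EVs, by 0.197 percentage points on average (SD 0.139, n = 14, adjusted exact p = 0.00183). Ala-CGC took 0.283% to 0.683% in plasma (median 0.499%) and 0.470% to 0.859% in EVs (median 0.584%). The share was higher in EVs in 12 of 14 mice, by 0.137 percentage points (SD 0.106, adjusted exact p = 0.00183). These 2 calls are not independent of one another. The most abundant copies of the 2 sums, CGC-1 and TGC-2, held counts at most 0.739% apart.

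Ala-AGC, whose anticodon adenine is read as inosine in the mature tRNA, went the other way. It took 0.439% to 1.33% of tRNA counts in plasma (median 0.773%) and 0.354% to 0.933% in EVs (median 0.738%), and was lower in EVs in 10 of 14 mice. The mean difference was -0.0816 percentage points (SD 0.131, adjusted exact p = 0.0267). This call was lost without 2-month replicates 2 and 3 (-0.084 percentage points, adjusted exact p = 0.0745) and when 1 of 3 other mice was left out (6-month replicate 4, 8-month replicate 1, 18-month replicate 2). tRNA-Ala as a whole rose from 1.81% ± 0.368 in plasma to 2.06% ± 0.346 in EVs (mean ± SD, n = 14), in 11 of 14 mice (adjusted exact p = 0.0132). tRNA-Cys-GCA took 1.33% ± 0.321 in plasma and 1.25% ± 0.371 in EVs, lower in EVs in 10 of 14 mice, and this difference did not pass (adjusted exact p = 0.183). By age, Ala-TGC was higher in EVs in every mouse of 2, 6, 8 and 12 months and in 1 of 2 mice of 18 months.

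**Figure D1:**
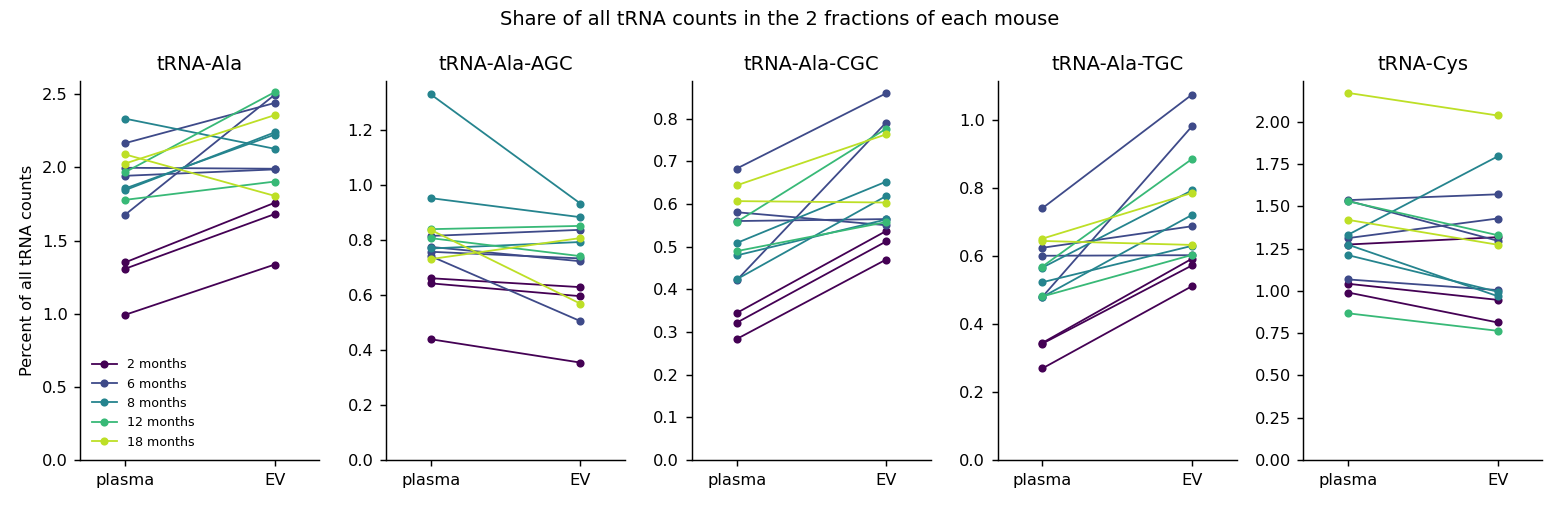
Share of all tRNA counts (percent, vertical axis) in plasma and EVs for tRNA-Ala, its 3 anticodons and tRNA-Cys, with 1 line per mouse coloured by age. The lines rise toward EVs in 13 of 14 mice for Ala-TGC and 12 of 14 for Ala-CGC, and fall in 10 of 14 for Ala-AGC and for tRNA-Cys.

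The directions depended on the whole against which the share was taken. As a share of all RNA counts, every one of these sums was lower in EVs: tRNA-Ala by -0.448 percentage points (adjusted exact p = 0.00102), Ala-CGC by -0.101 (0.00473), Ala-TGC by -0.0894 (0.0167), Ala-AGC by -0.258 (0.000305) and tRNA-Cys by -0.407 (0.000305). Ala-AGC and tRNA-Cys were lower in EVs in 14 of 14 mice by this measure, and Ala-CGC and Ala-TGC in 12 of 14. The whole tRNA class took the smaller share of EV libraries given above. In these bulk samples, fewer source cells or vesicles and less RNA from each cannot be told apart.

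Summed by anticodon and scaled against all RNAs, none of the 4 anticodons passed the test between fractions. edgeR's quasi-likelihood test on counts, with trimmed-mean (TMM) scaling over all RNAs and Benjamini-Hochberg adjustment over all 21967 entries, called 0 of the 4 sums at an adjusted p under 0.05, where 17.4% of all entries were called. The log2 fold change of EV over plasma was -0.58 (SE 0.30, adjusted p = 0.203) for Ala-AGC and -0.55 (SE 0.23, adjusted p = 0.110) for Cys-GCA by edgeR. It was -0.08 (SE 0.25, adjusted p = 0.907) for Ala-CGC and 0.03 (SE 0.25, adjusted p = 0.976) for Ala-TGC. Only Cys-GCA was under an unadjusted p of 0.05 (28.4% of all entries were), and DESeq2 called this 1 sum. With the mouse as a block, edgeR called Ala-AGC (-0.57, adjusted p = 0.0422) and Cys-GCA (-0.52, adjusted p = 0.0367) lower in EVs, where 18.3% of all entries were called, beside 7.01% called lower without the block.

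Among single copies, a small group of less abundant tRNA-Ala copies was enriched in EVs while the most abundant tRNA-Cys copies were lower there. edgeR called 16 of the 88 copies (18.2%), beside 17.3% of the 22323 entries tested, so the share was close to that of all RNAs. The copies called higher in EVs were 7, beside 10.4% of all entries: CGC-4, CGC-7, 3 copies of TGC-5, TGC-6 and the tRNA-Cys copy GCA-15. The 9 called lower, beside 6.91% of all entries, were all tRNA-Cys: 2 copies of GCA-1, GCA-2, 4 copies of GCA-3, GCA-14 and GCA-24. In distinct profiles these were 5 higher and 5 lower of 45 (22.2%). Of all tRNA entries, 48 of 407 (11.8%) were called, 24 in each direction. The median log2 fold change was -0.30 over the 88 copies, -0.23 over all tRNA entries and -0.022 over all entries tested. Leaving out 6-month replicate 4 brought the count to 7, none of them lower in EVs (17.5% of all entries were then called), and leaving out 6-month replicate 1 brought it to 25 (17.2%). It was 10 when the mouse left out was 2-month replicate 1, 2-month replicate 3, 6-month replicate 2, 6-month replicate 3, 8-month replicate 1 or 8-month replicate 2, with 15.5% to 18.0% of all entries called. Fitted within ages, edgeR called 3 copies in mice of 2 months (2.87% of all entries), 1 in mice of 6 and 8 months (5.08%) and 0 in mice of 12 and 18 months (3.35%).

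Ala-CGC-4 had the largest log2 fold change of the 45 profiles. Per 10000 tRNA counts it had 0.365 to 1.97 in plasma (median 0.623) and 1.00 to 7.39 in EVs (median 2.44), and all 14 mice had more in EVs, with a median ratio of 3.41. The 2 fractions overlapped across mice while every mouse moved the same way. In RPM the same copy ran from 32.4 to 188 in plasma (median 75.9) and from 45 to 323 in EVs (median 124), higher in EVs in 11 of 14 mice. Its log2 fold change was 1.27 (SE 0.21, edgeR adjusted p = 7.14e-05).

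Ala-TGC-6 and Ala-TGC-5 behaved alike. TGC-6 had 0.306 to 1.42 per 10000 tRNA counts in plasma (median 0.536) and 0.831 to 5.84 in EVs (median 1.90), and TGC-5 had 0.447 to 2.14 (median 0.765) and 1.13 to 7.79 (median 2.57). Both were higher in EVs in 14 of 14 mice by this share, and by RPM in 11 (TGC-6) and 10 (TGC-5) of 14, with log2 fold changes of 1.25 (SE 0.21) and 1.06 (SE 0.21) and edgeR adjusted p of 7.71e-05 and 0.000386. CGC-4, TGC-5 and TGC-6 are not independent evidence of one another. The ratio of TGC-6 to CGC-4 counts had a median of 0.799 and an SD of 0.16 on the log2 scale over the 28 libraries, against a median SD of 0.62 over all 990 pairs of profiles.

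Ala-CGC-7 had 0.203 to 1.25 per 10000 tRNA counts in plasma (median 0.444) and 0.743 to 3.94 in EVs (median 1.64), and was higher in EVs in 13 of 14 mice by this share and in 12 by RPM (log2 fold change 1.16, SE 0.25, edgeR adjusted p = 0.00117). Its plasma counts were as low as 11. Cys-GCA-15 had 0.127 to 0.460 in plasma (median 0.231) and 0.293 to 2.24 in EVs (median 0.541), higher in EVs in 14 of 14 mice by this share and in 9 of 14 by RPM (log2 fold change 0.88, SE 0.18, edgeR adjusted p = 0.000807). It was the only one of the 22 tRNA-Cys profiles called higher in EVs. All 5 of these profiles were called in each of the 14 fits that left out 1 mouse.

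**Figure D2:**
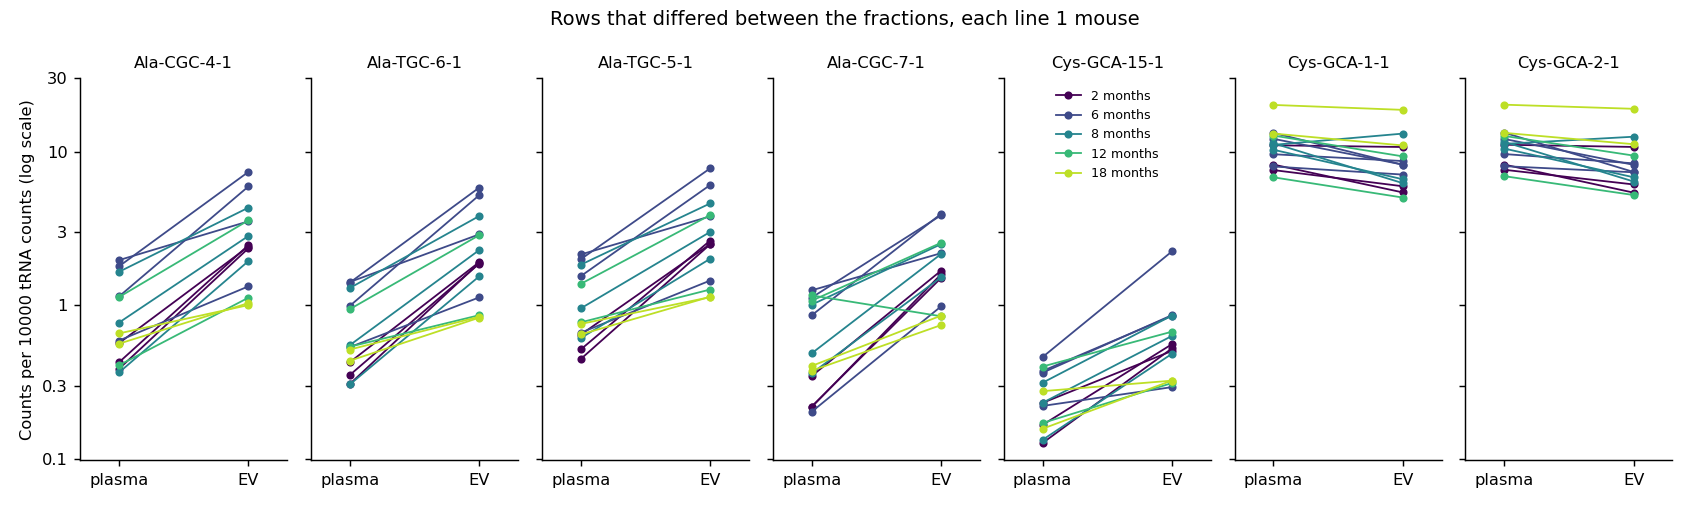
Counts per 10000 tRNA counts (log scale, vertical axis) in plasma and EVs for copies that differed between the fractions, with 1 line per mouse coloured by age. CGC-4 rises from a median of 0.623 in plasma to 2.44 in EVs with every line rising, while GCA-1 falls in 13 of 14 mice.

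The abundant tRNA-Cys copies GCA-1, GCA-2 and GCA-3 were lower in EVs. In RPM, GCA-1 ran from 505 to 3301 in plasma (median 1151) and from 143 to 1779 in EVs (median 361), and GCA-2 from 506 to 3313 (median 1161) and from 147 to 1808 (median 351). Both were lower in EVs in 14 of 14 mice by RPM, and in 13 by their share of tRNA counts, although the fractions overlapped. Their log2 fold changes were -0.81 (SE 0.23) and -0.81 (SE 0.24), with edgeR adjusted p of 0.0135 and 0.0151. GCA-3 followed with -0.73 (adjusted p = 0.0301), GCA-14 with -0.69 (0.0294) and GCA-24 with -0.65 (0.0385). Of 14 fits that each left out 1 mouse, GCA-1 and GCA-2 were called in 13, GCA-3 in 7, GCA-14 in 6 and GCA-24 in 4. GCA-1 and GCA-2 held nearly the same counts (SD of their log2 ratio 0.041), as did GCA-14 and GCA-24 (0.067). GCA-3 was close to GCA-2 and GCA-1 as well (0.113 and 0.116). The calls of GCA-1, GCA-2 and GCA-3 are thus not independent, nor are those of GCA-14 and GCA-24. The other 16 tRNA-Cys profiles did not pass.

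The abundant tRNA-Ala copies did not pass. The log2 fold change was -0.12 for both TGC-2 and CGC-1, and -0.60 (edgeR adjusted p = 0.174) for AGC-4, which ran from 709 to 5243 RPM in plasma and from 378 to 2561 RPM in EVs and was lower in EVs in 14 of 14 mice. All 9 AGC profiles had a fold change below 0, from -0.74 to -0.38, and edgeR called 0 of them, with 5 under an unadjusted p of 0.05 and a smallest adjusted p of 0.0945. DESeq2 called 0 as well. CGC and TGC had 2 of 7 profiles each called higher in EVs by edgeR, which called 0 lower, where DESeq2 called 1 CGC profile lower. None of these fits paired the 2 fractions of a mouse. The AGC result also depended on the scaling. With the deposited RPM scaling edgeR called 9 of the 9 AGC profiles lower, where 26.8% of all entries were called. With TMM over tRNA entries alone it called 2 of them lower, where 14.8% of all entries were called.

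With the mouse as a block, edgeR called 28 of the 88 copies, 7 higher and 21 lower in EVs, where 18.6% of all entries were called, and 6 of the 9 AGC profiles were then called lower. The scaling decided the balance of directions. With the deposited RPM scaling the median of all entries moved to -0.48 and 76 of the 88 copies were called, 2 higher and 74 lower, beside 26.8% of all entries. With TMM over tRNA entries alone the median of all entries was 0.22 and 24 were called, 12 in each direction, beside 14.8% of all entries. Over all entries, 2326 of 3868 calls were higher in EVs with the scaling used above, 1068 of 5988 with RPM scaling and 2650 of 3302 with TMM over tRNA entries. The 2 copies called higher with RPM scaling were CGC-4 (0.80, edgeR adjusted p = 0.0322) and TGC-6 (0.80, adjusted p = 0.0292). The shares per 10000 tRNA counts given above are scaled by the tRNA total of each library, which is itself a choice. By RPM, GCA-15 was higher in EVs in 9 mice and TGC-5 in 10, where both were in 14 by share.

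**Figure D3:**
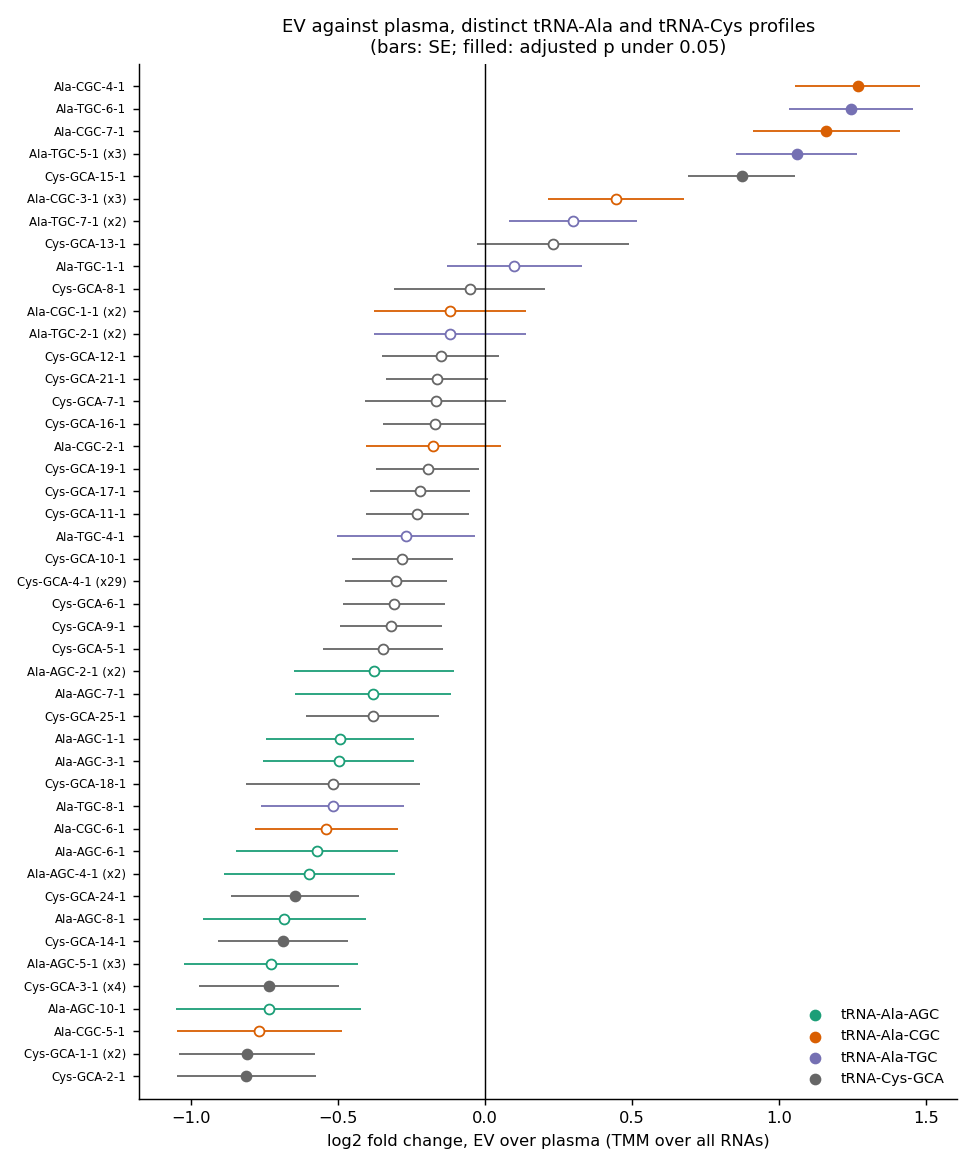
Log2 fold change of EV over plasma (horizontal axis, TMM scaling over all RNAs) for the 45 distinct profiles, coloured by anticodon, with bars for the SE and filled points for an adjusted p under 0.05. The 5 filled points on the right include CGC-4 (1.27) and the 5 on the left, all tRNA-Cys, reach -0.81, while the 9 AGC points lie between -0.74 and -0.38.

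With age, the RPM of tRNA-Ala and tRNA-Cys in both fractions were highest at 12 and 18 months, while the share of tRNA-Ala in the tRNA pool was lowest at 2 months. In plasma, summed tRNA-Ala was 21295, 11520.0 and 15584 RPM at 2 months, 18467, 10689.6, 7010.4 and 22741 at 6 months, 20701, 10379 and 9097 at 8 months, 25867 and 36991 at 12 months, and 33180.3 and 47787 at 18 months. In EVs it was 11834, 6715 and 14781 at 2 months, 8540.0, 4637, 10815 and 10645 at 6 months, 4927, 6203 and 4796 at 8 months, 19886 and 28993 at 12 months, and 22395 and 22309 at 18 months. In each fraction the 4 libraries of 12 and 18 months lay above all 10 younger ones, with means 2.44 times higher in plasma and 2.79 times in EVs. The values at 2, 6 and 8 months overlapped in plasma, and in EVs all 3 values at 8 months lay below those of 2 months. The deposited RPM of a library summed to 930340 to 2901540 in plasma and 1034533 to 3809005 in EVs, not to a fixed total. As a share of all RNA counts, plasma tRNA-Ala took 1.28% to 1.65% at 12 and 18 months (mean 1.47%). At 6 and 8 months it took 0.754% to 1.42% (1.06%). In EVs it took 0.734% to 1.21% (0.964%) and 0.240% to 1.05% (0.551%), so these 2 age groups overlapped in both fractions by this measure. At 2 months tRNA-Ala took 0.664% to 0.873% in plasma and 0.418% to 0.732% in EVs, below every library of 12 and 18 months of the same fraction.

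Summed tRNA-Cys followed a like course. In plasma it was 20088, 9182 and 15552 RPM at 2 months, 9868, 7219, 6408 and 16133 at 6 months, 11293, 7493 and 5935 at 8 months, 20109 and 18036 at 12 months, and 35534 and 32479 at 18 months. In EVs it was 8866, 3781 and 8997 at 2 months, 4309, 3333, 5615 and 6852 at 6 months, 2243, 4972 and 2145 at 8 months, 10512 and 11632 at 12 months, and 19354 and 15725 at 18 months. The EV libraries of 12 and 18 months again lay above all younger ones (mean ratio 2.80), and in plasma 3 of 4 did (2.43), since 12-month replicate 2 fell below a library of 2 months. Of the single anticodons, Ala-CGC lay above all younger libraries in 4 of 4 in both fractions, and Ala-AGC and Ala-TGC in 4 of 4 in EVs and 3 of 4 in plasma. By share of all RNA counts, tRNA-Cys and each of these anticodons at 12 and 18 months overlapped the younger mice in both fractions.

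**Figure D4:**
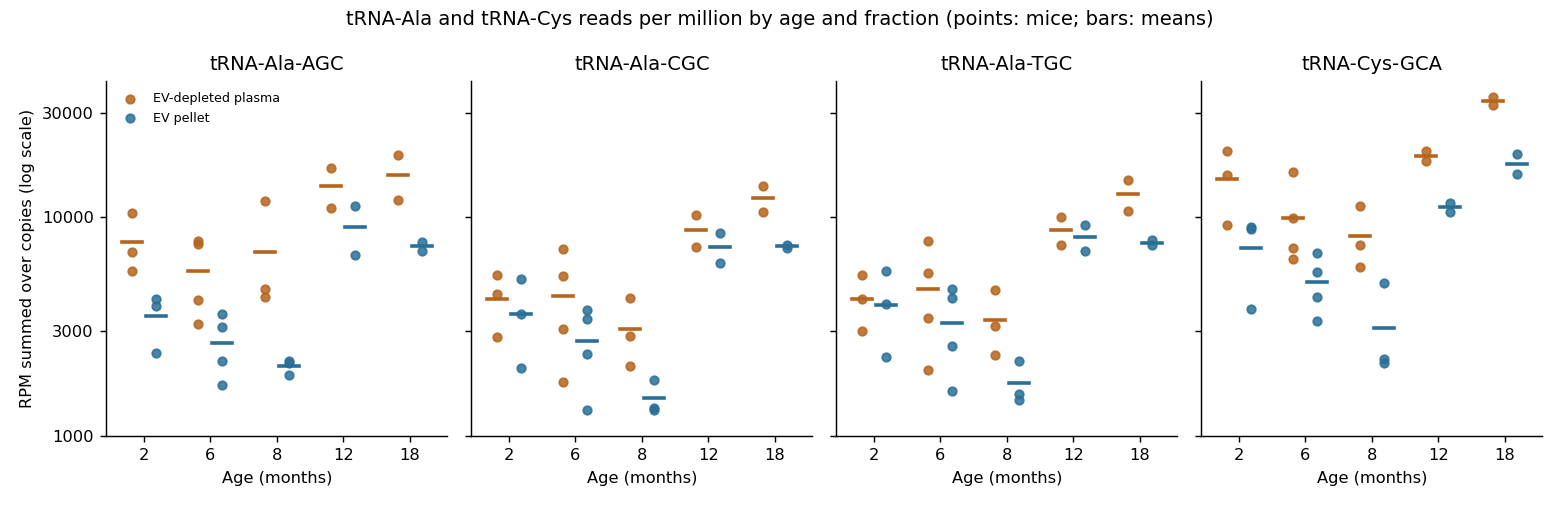
RPM summed over copies (log scale, vertical axis) against age in months for the 3 tRNA-Ala anticodons and tRNA-Cys in plasma and EVs, with points for mice and bars for group means. The EV points of 12 and 18 months lie above every younger EV point in each panel, and the lowest EV means fall at 8 months.

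As a share of tRNA counts, tRNA-Ala was lower at 2 months than at every later age. In plasma it took 1.35%, 1.31% and 0.992% of tRNA counts in the 3 mice of 2 months, and 1.68% to 2.33% (mean 1.97%) in the 11 older mice, without overlap, and the older mean was 1.62 times the mean of 2 months. Each anticodon of tRNA-Ala showed the same gap in plasma. Ala-TGC took 0.270% to 0.345% at 2 months and 0.480% to 0.742% later (ratio of means 1.81), Ala-CGC 0.283% to 0.344% and 0.421% to 0.683% (1.71), and Ala-AGC 0.439% to 0.661% and 0.731% to 1.33% (1.46). The gap lay between 2 months and 6 months, since plasma tRNA-Ala averaged 1.97% at 6 and 8 months and 1.97% at 12 and 18 months.

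In EVs tRNA-Ala took 1.34% to 1.76% at 2 months and 1.81% to 2.51% later (ratio of means 1.38). Ala-CGC (0.470% to 0.537% against 0.550% to 0.859%) and Ala-TGC (0.512% to 0.593% against 0.603% to 1.08%) did not overlap either, and Ala-AGC did (0.354% to 0.629% against 0.505% to 0.933%). With 1 copy per distinct profile the plasma groups of tRNA-Ala and its 3 anticodons still did not overlap, while those in EVs did. As a share of all RNA counts both fractions overlapped. This contrast of 2 months with the older mice was chosen after its values were seen and was not tested. Red cell marker miRNAs summed to 1263 to 3170 RPM in plasma at 2 months and 687 to 2787 RPM later, and their part in the gap was not tested.

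Set against all younger mice, the mean share of the 12- and 18-month libraries was 1.01 to 1.25 times as high across the 4 anticodons and both fractions. tRNA-Cys took 0.867% and 1.53% of plasma tRNA counts in the 2 mice of 12 months and 2.17% and 1.42% in those of 18 months, against 0.990% to 1.54% in the younger mice. The Spearman correlation of the share with age (n = 14, 10 relations) was 0.56 to 0.60 for tRNA-Ala and its anticodons in plasma (permutation p adjusted to 0.0963) and 0.37 for tRNA-Cys, and from 0.23 to 0.50 in EVs. Pearson's r was 0.31 to 0.66 in plasma (permutation p adjusted 0.0770 to 0.317) and 0.17 to 0.39 in EVs (0.275 to 0.561), and 0.16 to 0.65 and 0.054 to 0.66 without the 2 mice of 18 months. None of the 10 passed, by rho or by r. Within the 12 mice under 18 months, rho of Ala-AGC was 0.80 in plasma (permutation p adjusted to 0.0261) and 0.76 in EVs (0.0289), and these 2 relations passed.

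For RPM against age, Pearson's r was 0.67 to 0.79 in plasma and 0.62 to 0.72 in EVs (n = 14, permutation p adjusted over 10 relations 0.00737 to 0.0138 and 0.0104 to 0.0175). Spearman's rho was 0.43 to 0.58 and 0.38 to 0.43 and passed in 0 of 10 (permutation p adjusted 0.134 to 0.181). Without the 2 mice of 18 months, the farthest from the median age, r was 0.12 to 0.49 in plasma and 0.23 to 0.54 in EVs and none passed. Fewer mice over a shorter age range remain in that fit, so whether the linear relation rests on these mice cannot be told. Leaving out 18-month replicate 2 alone brought the number that passed to 0.

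Across all RNAs, no copy passed a test of linear age trend. In plasma, edgeR called 0 of the 88 copies (0.0139% of 21632 entries were called), 29 copies or 20 of 45 profiles had an unadjusted p under 0.05 beside 7.29% of all entries, and DESeq2 called 0. In EVs, edgeR called 0 of 88 (0.0% of 18570 entries), 60 copies or 24 of 45 profiles had an unadjusted p under 0.05 beside 5.8%, and DESeq2 called 0 with 19 profiles unadjusted. The slopes were above 0 for all 45 profiles in plasma, from 0.003 to 0.17 log2 units per month (median 0.063), and for 41 of 45 in EVs (median 0.080). The median slope of all tRNA entries was 0.059 in plasma and 0.074 in EVs, and that of all entries 0.0038 and -0.0040. The direction of these slopes depended on the scaling. With TMM over tRNA entries alone, 20 of 45 slopes were above 0 in plasma and 21 of 45 in EVs, with medians of -0.0077 and -0.0030.

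The smallest p in plasma among the copies was that of Ala-TGC-4, with a slope of 0.10 log2 units per month (SE 0.03, edgeR adjusted p = 0.575), and in EVs that of Cys-GCA-24, with 0.12 (SE 0.036, adjusted p = 0.645). The slopes in EVs of the copies enriched there depended on the scaling. With TMM over all RNAs they were -0.011 for CGC-4 and for TGC-6, -0.006 for TGC-5, 0.005 for CGC-7 and 0.017 for GCA-15. With TMM over tRNA entries they were -0.097, -0.097, -0.091, -0.076 and -0.070 in the same order, each with an edgeR adjusted p of 0.365. Of the sums, the plasma slope was 0.075 for Ala-AGC (SE 0.041), 0.097 for Ala-CGC (SE 0.037), 0.098 for Ala-TGC (SE 0.035) and 0.070 for Cys-GCA (SE 0.037). The EV slopes were 0.11 for Ala-AGC (SE 0.046), 0.097 for Ala-CGC (SE 0.042), 0.091 for Ala-TGC (SE 0.041) and 0.10 for Cys-GCA (SE 0.039). edgeR called 0 of these 4 in plasma (0.0141% of all entries were called), with 2 under an unadjusted p of 0.05 beside 7.01% of all entries, and 0 in EVs (0.0%), with 4 unadjusted beside 5.28%, and DESeq2 called 0 in either.

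Whether the slope differed between the fractions was tested as an interaction of age and fraction. The difference of slopes, EV minus plasma, was 0.035 log2 units per month for Ala-AGC (SE 0.064), 0.0036 for Ala-CGC (SE 0.058), -0.0037 for Ala-TGC (SE 0.056) and 0.035 for Cys-GCA (SE 0.055). edgeR called 0 of the 4 (0.0% of 21967 entries), 0 had an unadjusted p under 0.05 beside 4.07% of all entries, and DESeq2 called 0, so a difference was not detectable with these mice. Marker miRNAs of liver and skeletal muscle in EVs were higher at 12 and 18 months than at 2 months, but the ages between did not follow. Over all mice of 6 to 18 months those of liver ran from 19.2 to 243 RPM and those of skeletal muscle from 0.489 to 8.08 RPM. Mice of 6 and 8 months thus reached below the values of 2 months. From 2 months to 12 and 18 months those of liver went from 40.1 to 83.9 RPM to 126 to 179 RPM and those of skeletal muscle from 0.996 to 4.35 RPM to 4.55 to 8.08 RPM, without overlap, and those of platelets from 61.6 to 201 RPM to 163 to 391 RPM. Those of red cells went from 1548 to 3555 RPM to 772 to 4268 RPM, with overlap. In plasma these ages overlapped for every marker list. The part of these markers in the EV values by age was not tested.

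**Figure D5:**
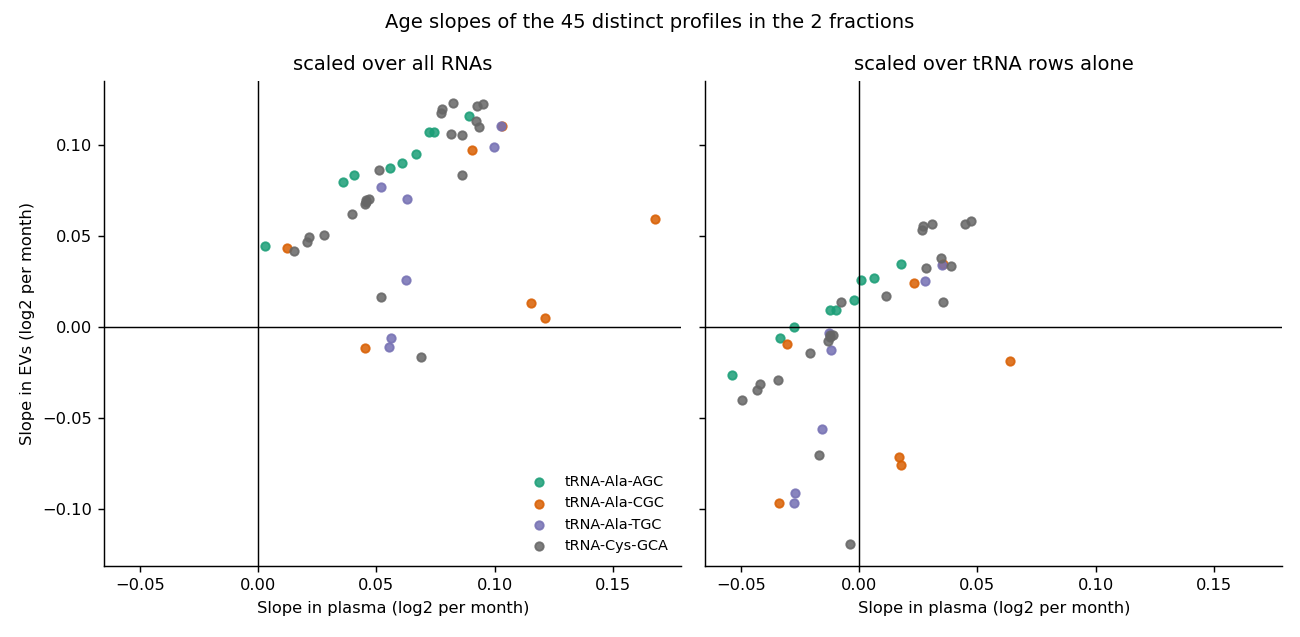
Slope with age (log2 units per month) in plasma (horizontal axis) and EVs (vertical axis) for the 45 distinct profiles, coloured by anticodon, with TMM scaling over all RNAs and over tRNA entries alone. With the first scaling all 45 points lie to the right of 0 and 41 above it, and with the second 20 lie to the right and 21 above.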

How the data were processed

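The deposited tables gave estimated counts per annotated RNA for each library, not normalized, and a signal that the authors name RPM. Within a library the deposited RPM equalled the counts divided by 1 number, which was not the total count. The submitters' notes name genome build mm10 and R 4.0.4, and the study's methods describe mapping (Bowtie, with tRNAs from GtRNAdb) without saying whether it covers these plasma and EV libraries. All tRNA-Ala and tRNA-Cys counts were whole to a tolerance of 1e-06. In 46 entries of other classes they were not, and these were rounded for the fits. Libraries were grouped by the labelled age and fraction.

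An entry was tested if, in either fraction, over 10% of libraries (2 of 14) reached 1 RPM. Tests were run with edgeR 4.0.16 (TMM, quasi-likelihood test) in R 4.3.3 and adjusted by the Benjamini-Hochberg method over all entries, with a threshold of 0.05. The fit of EV against plasma had age as a factor, and age trends were fitted within a fraction. Scripts were tested on simulated data. Alternatives were DESeq2 1.42.0, other scalings and filters, leaving out mice, and the mouse as a block. Those with 1 copy per distinct profile, within age groups, among mice under 18 months for RPM, and blocks with another scaling were chosen after seeing the data. Shares and correlations used SciPy 1.17.1 (Python 3.11.15).

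The labels give both fractions of 12 mice the same mouse code, and the others are paired by replicate number alone. Over 22323 entries, deviations of the 14 pairs correlated by -0.103 to 0.462 (median 0.201), 12 of them over 0.1, and 10 pairs were highest with their own number. In a group of 2 mice the deviations mirror each other, so both pairs give 1 value (0.462 at 12 months, 0.214 at 18 months). The number of matches that chance would give was not computed. No 2 replicates differed by less than sampling noise (smallest chi-square per degree of freedom 16.5). The protocol states 1 animal per sample.

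Named were the sums, the 6 most abundant copies of each family and, in each comparison, the 4 of each family with the smallest p. Copies with equal counts were named once. The members and lists were chosen with earlier results of these data known. Depth sets the precision, and the fewest counts of a profile in a library were 2 in plasma and 13 in EVs.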

Additional observations from a re-analysis of the deposited data

Results flagged for a closer look

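The highest RPM of a group stood apart from the others by Dixon's criterion in 5 of 62 groups of 4 tested, a criterion that chance meets in about 1 of 20. All 5 were tRNA-Cys copies in 6-month replicate 4. GCA-12 had 67.1 RPM in its plasma against 23.9 to 26.4 in the other 3 mice (ratio of gap to range 0.943652) and 47.3 RPM in its EVs against 17.1 to 20.9 (0.871701). In plasma, GCA-14 had 57.3 RPM against 17.5 to 19.3 (0.953781), GCA-24 had 55.7 against 17.2 to 19.8 (0.932309), and GCA-15 had 48.3 against 15.2 to 20.5 (0.839073). GCA-14 and GCA-24 hold nearly the same counts, so these are not separate events. Without this mouse, edgeR called none of the tRNA-Cys copies lower in EVs. In 50 comparisons of 2 ages over 5 sums, none had share differences between EVs and plasma that were above 0 in every mouse of one age and below 0 in every mouse of the other.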

How the results depend on the processing

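Of the counts and share differences compared, 285 values under an alternative stayed the same, 29 counts moved, 3 differences reversed, 4 lost their call and 2 gained it. A count stayed the same if it was equal to the main count or within 1.5 times of it, whatever its directions, and moved otherwise. A share difference stayed the same if it kept its direction and its side of the threshold. Of 88 copies, 16 were called between fractions. This became 76 with RPM scaling, 10 without 2-month replicates 2 and 3, and, by age, 3 at 2 months alone (2.87% of all entries), 1 at 6 and 8 months (5.08%) and 0 at 12 and 18 months (3.35%, edgeR, on fewer mice). The replicate block gave 28 (18.6%), the replicate block with TMM over tRNA entries 28 (19.4%), and the replicate block with RPM scaling 80 (36.8%). Leaving out 1 mouse gave 7 to 25. Of 4 sums, 0 were called, but 1 with DESeq2, 3 with RPM scaling, 2 with the replicate block, and 0 to 1 without 1 mouse. The block changed no other call.

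As a share of all RNA counts, the differences were -0.448 (tRNA-Ala), -0.101 (Ala-CGC), -0.0894 (Ala-TGC) and -0.407 (tRNA-Cys). For Ala-AGC the share of tRNA counts differed by -0.0843 without 2-month replicates 2 and 3, and by -0.0938 to -0.0574 without 1 mouse. For tRNA-Cys the range was -0.114 to -0.0550, with the call gained without 8-month replicate 2. Relations of share with age that passed were 2 under 18 months, 4 (rho) and 6 (r) as a share of all RNA, and 0 to 3 without 1 mouse. Those of RPM (r) were 0 under 18 months and 0 to 10 without 1 mouse.

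Some values changed sign, and not all of them were near 0. In the main fit between fractions, tRNA-Ala-AGC-2-1 was -0.38 (SE 0.27), tRNA-Cys-GCA-5-1 -0.35 (SE 0.20) and tRNA-Ala-TGC-4-1 -0.27 (SE 0.23). The main plasma slope of the sum of tRNA-Ala-AGC was 0.075, and the main EV slope of tRNA-Cys-GCA-10-1 was 0.068. Between fractions, tRNA-Ala-TGC-2-1 and tRNA-Ala-CGC-1-1 became 0.13 and 0.13 with tRNA TMM, 0.13 and 0.13 with the block as well, 0.20 and 0.20 at 12 and 18 months, and -0.19 to 0.022 without 1 mouse. At 12 and 18 months tRNA-Ala-AGC-2-1 was 0.080, tRNA-Ala-TGC-4-1 0.013, tRNA-Cys-GCA-5-1 0.074 and tRNA-Cys-GCA-7-1 0.13, the last also 0.10 with tRNA TMM and 0.11 with the block added. The sum of tRNA-Ala-CGC was 0.14 with tRNA TMM and -0.15 to 0.039 without 1 mouse. The sum of tRNA-Ala-TGC was -0.49 with RPM scaling, -0.042 without 2-month replicates 2 and 3, -0.015 with distinct profiles and -0.036 to 0.14 without 1 mouse. With tRNA TMM the plasma slopes of tRNA-Cys-GCA-5-1, tRNA-Cys-GCA-10-1 and the sum of tRNA-Ala-AGC were -0.0077, -0.013 and -3.68e-05, and the EV slopes of tRNA-Cys-GCA-10-1, tRNA-Ala-CGC-7-1 and tRNA-Cys-GCA-15-1 were -0.0079, -0.076 and -0.070. The slope difference of the sum of tRNA-Ala-CGC was -0.018 with RPM scaling, -0.0094 with tRNA TMM and -0.0088 to 0.015 without 1 mouse, and that of tRNA-Ala-TGC was 0.0012 with distinct profiles and -0.016 to 0.011 without 1 mouse. The cause was not tested.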
